A study of Mus musculus with 4 samples.

Results

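The genes described here are 9 matrix proteases and protease inhibitors of the mouse kidney, taken by their symbols from the 31053 genes listed in the files: the tissue inhibitors of metalloproteinases Timp1, Timp2 and Timp3, the matrix metalloproteinases Mmp2, Mmp9, Mmp12 and Mmp14, and the plasminogen activators Plau and Plat. All 9 symbols were found in each of the 4 libraries. The genes were named as a group and not picked by a threshold on their values.

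Single-cell RNA sequencing was run on whole kidneys of male C57BL/6 mice after ischemia-reperfusion injury, an injury made by stopping blood flow to the kidney and letting it return. There were 4 groups of 1 library each. The first 3 groups had ischemia-reperfusion without the probiotic, with kidneys taken at day 5, day 14 or day 28 after it. The fourth had been gavaged by mouth with the bacterium Lactobacillus casei Zhang (Lac.z) at 1e9 CFU per day for 4 weeks before injury and was taken on day 5. All groups therefore carry the injury, and no uninjured kidney was analysed here. The sources used here do not state what mice without Lac.z were given or how many animals went into a library. With 1 library a group there is no replicate check, so no p-value is given. Each 95% interval below is an exact one that covers counting error only.

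Matrix metalloproteinases are zinc enzymes that cut collagens, elastin, laminins and other matrix proteins, and most are secreted as inactive proenzymes. The TIMPs bind their active sites and inhibit them, and TIMP3 is the member that is held in the extracellular matrix. Plau (urokinase) and Plat (tissue plasminogen activator) convert plasminogen into plasmin, a protease that dissolves fibrin and can activate some proenzymes. In the kidney this system is studied for its part in tubular repair, in the breakdown of basement membrane and in fibrosis.

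The promoter-side sequences of Timp1, Timp3 and Mmp12 are shown because the results below turn on which cells these 3 genes were read in: mainly stromal cells for Timp1, tubule and endothelium for Timp3, and macrophages for Mmp12. RefSeq gave a window for 5 of the 9 members (GRCm38.p6). Each is the stretch from 250 to 51 bases before the annotated start, 200 bases long, 5′ to 3′ on the gene's own strand. That is the plus strand for the 3 windows shown. The positions are chrX:20869916-20870115 for Timp1, chr10:86300162-86300361 for Timp3 and chr9:7344147-7344346 for Mmp12. Capitals mark the only match found to a searched motif.
Timp1: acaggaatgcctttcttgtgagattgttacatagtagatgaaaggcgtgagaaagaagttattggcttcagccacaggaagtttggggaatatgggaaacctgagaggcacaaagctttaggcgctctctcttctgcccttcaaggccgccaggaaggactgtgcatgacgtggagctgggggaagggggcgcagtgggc
Timp3: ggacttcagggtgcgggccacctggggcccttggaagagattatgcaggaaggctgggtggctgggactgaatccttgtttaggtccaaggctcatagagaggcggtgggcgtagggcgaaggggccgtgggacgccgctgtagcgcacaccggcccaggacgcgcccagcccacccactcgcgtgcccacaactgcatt
Mmp12: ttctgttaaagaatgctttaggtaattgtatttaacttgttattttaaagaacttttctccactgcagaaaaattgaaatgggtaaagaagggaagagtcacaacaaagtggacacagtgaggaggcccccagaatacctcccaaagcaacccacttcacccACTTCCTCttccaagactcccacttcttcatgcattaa
The windows differ in CpG content. Timp3 has 13 CpG dinucleotides, Timp1 has 5 and Mmp12 has 0, where the median of 32851 RefSeq windows of the same length is 4. Mmp14, whose window is not printed, has 6. Motifs were searched on both strands: AP-1 (TGANTCA, in 5.57% of all windows), the GC box (GGGCGG, 24.6%), the TATA box (TATAAA, 9.14%) and the core of the PU.1 motif (GAGGAAGT, 1.75%). The match in Mmp12 is the PU.1 core, read on the other strand as ACTTCCTC. PU.1 is a transcription factor of myeloid cells. A match is a description of letters, not a binding site.

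Cells were assigned to classes from lists of marker genes. A cell took the class with most of its markers detected, with at least 3 markers and a lead of 2 over classes of other lineages. These thresholds were set with the data in view, so classes are called by their leading markers as "-like". Depth was 76678882 to 104454319 unique molecular identifiers (UMIs) per library, and 6583 to 12376 cells per library were kept. A class was given to 93.6% to 95.6% of them. Cell barcodes shared between any 2 libraries numbered 15 to 43, at most 0.510% of the smaller library. The makeup differed widely: in the order day 5, day 5 Lac.z, day 14 and day 28, macrophage-like cells were 57.0%, 23.6%, 9.07% and 3.57% of kept cells, and proximal tubule-like cells 20.6%, 59.6%, 63.4% and 73.7%. Dissociation and capture can set such shares. The levels below are therefore CPM, the UMIs of a gene scaled to a class total of 1e6 within each library, always in that order. They are not per transcript length, so levels of different genes are not compared.

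Most members had 1 class that held over 50% of their UMIs, and Plat had none. Of Mmp12 UMIs over the 4 libraries, 91.6% lay in macrophage-like cells, as did 86.3% of Timp2 and 77.3% of Mmp14. Neutrophil-like cells held 73.4% of Mmp9. The fibroblast or mural-like class (collagen-making and vessel-wall cells) held 66.6% of Timp1 and 54.4% of Mmp2. Proximal tubule-like cells held 90.3% of Timp3 and 65.6% of Plau. Plat was split, with 40.3% in injured tubule-like, 30.7% in endothelial-like and 10.6% in fibroblast or mural-like cells. These shares weigh a class by its cells and their depth, and the order of classes turned within libraries. With Lac.z, macrophage-like cells held 39.2% of the library's Timp1 and 50% of its Mmp2, against 29.8% and 23.9% in the fibroblast or mural-like class. At day 28 endothelial-like cells held 23.8% of Mmp2 and the fibroblast or mural-like class 12.7%. The injured tubule-like share of Plat was 61.3% at day 5 and 6.95% at day 28.

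**Figure D1:**
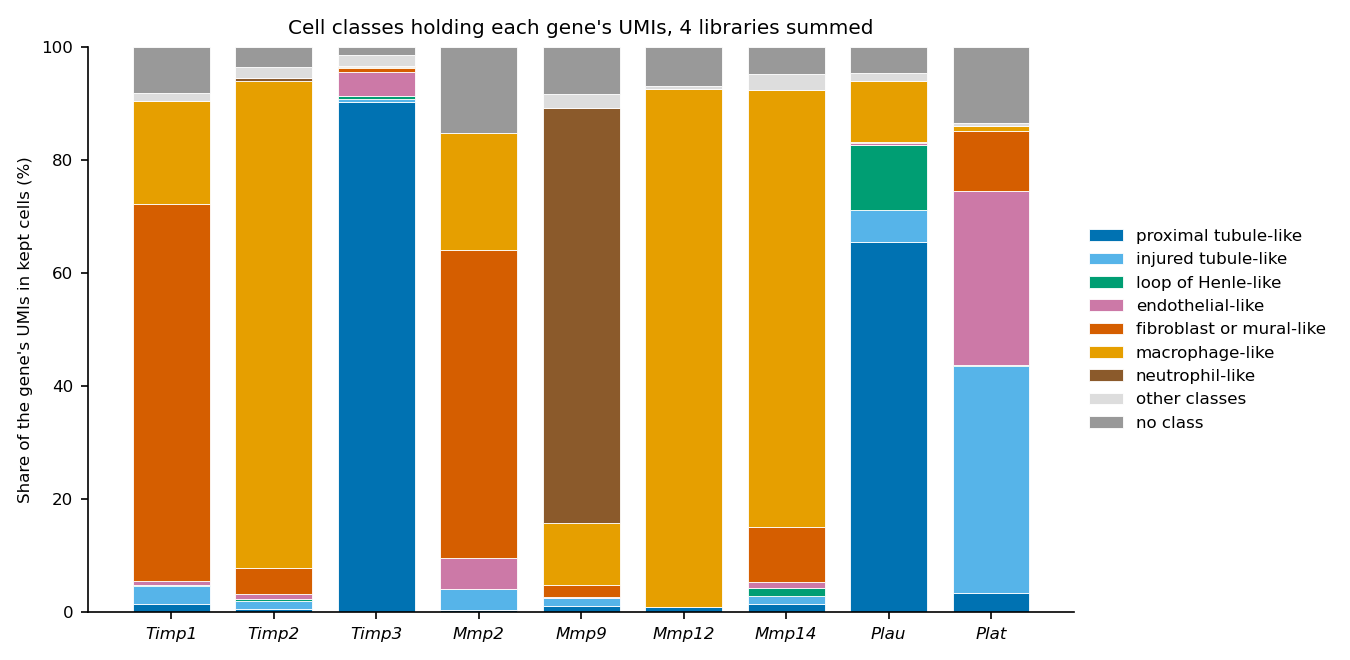
Share of each member's UMIs, in percent over the 4 libraries summed, held by each cell class (stacked bars from 0 to 100%). Macrophage-like cells hold 91.6% of Mmp12 and 86.3% of Timp2, proximal tubule-like cells 90.3% of Timp3, and neutrophil-like cells 73.4% of Mmp9.

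**Figure D2:**
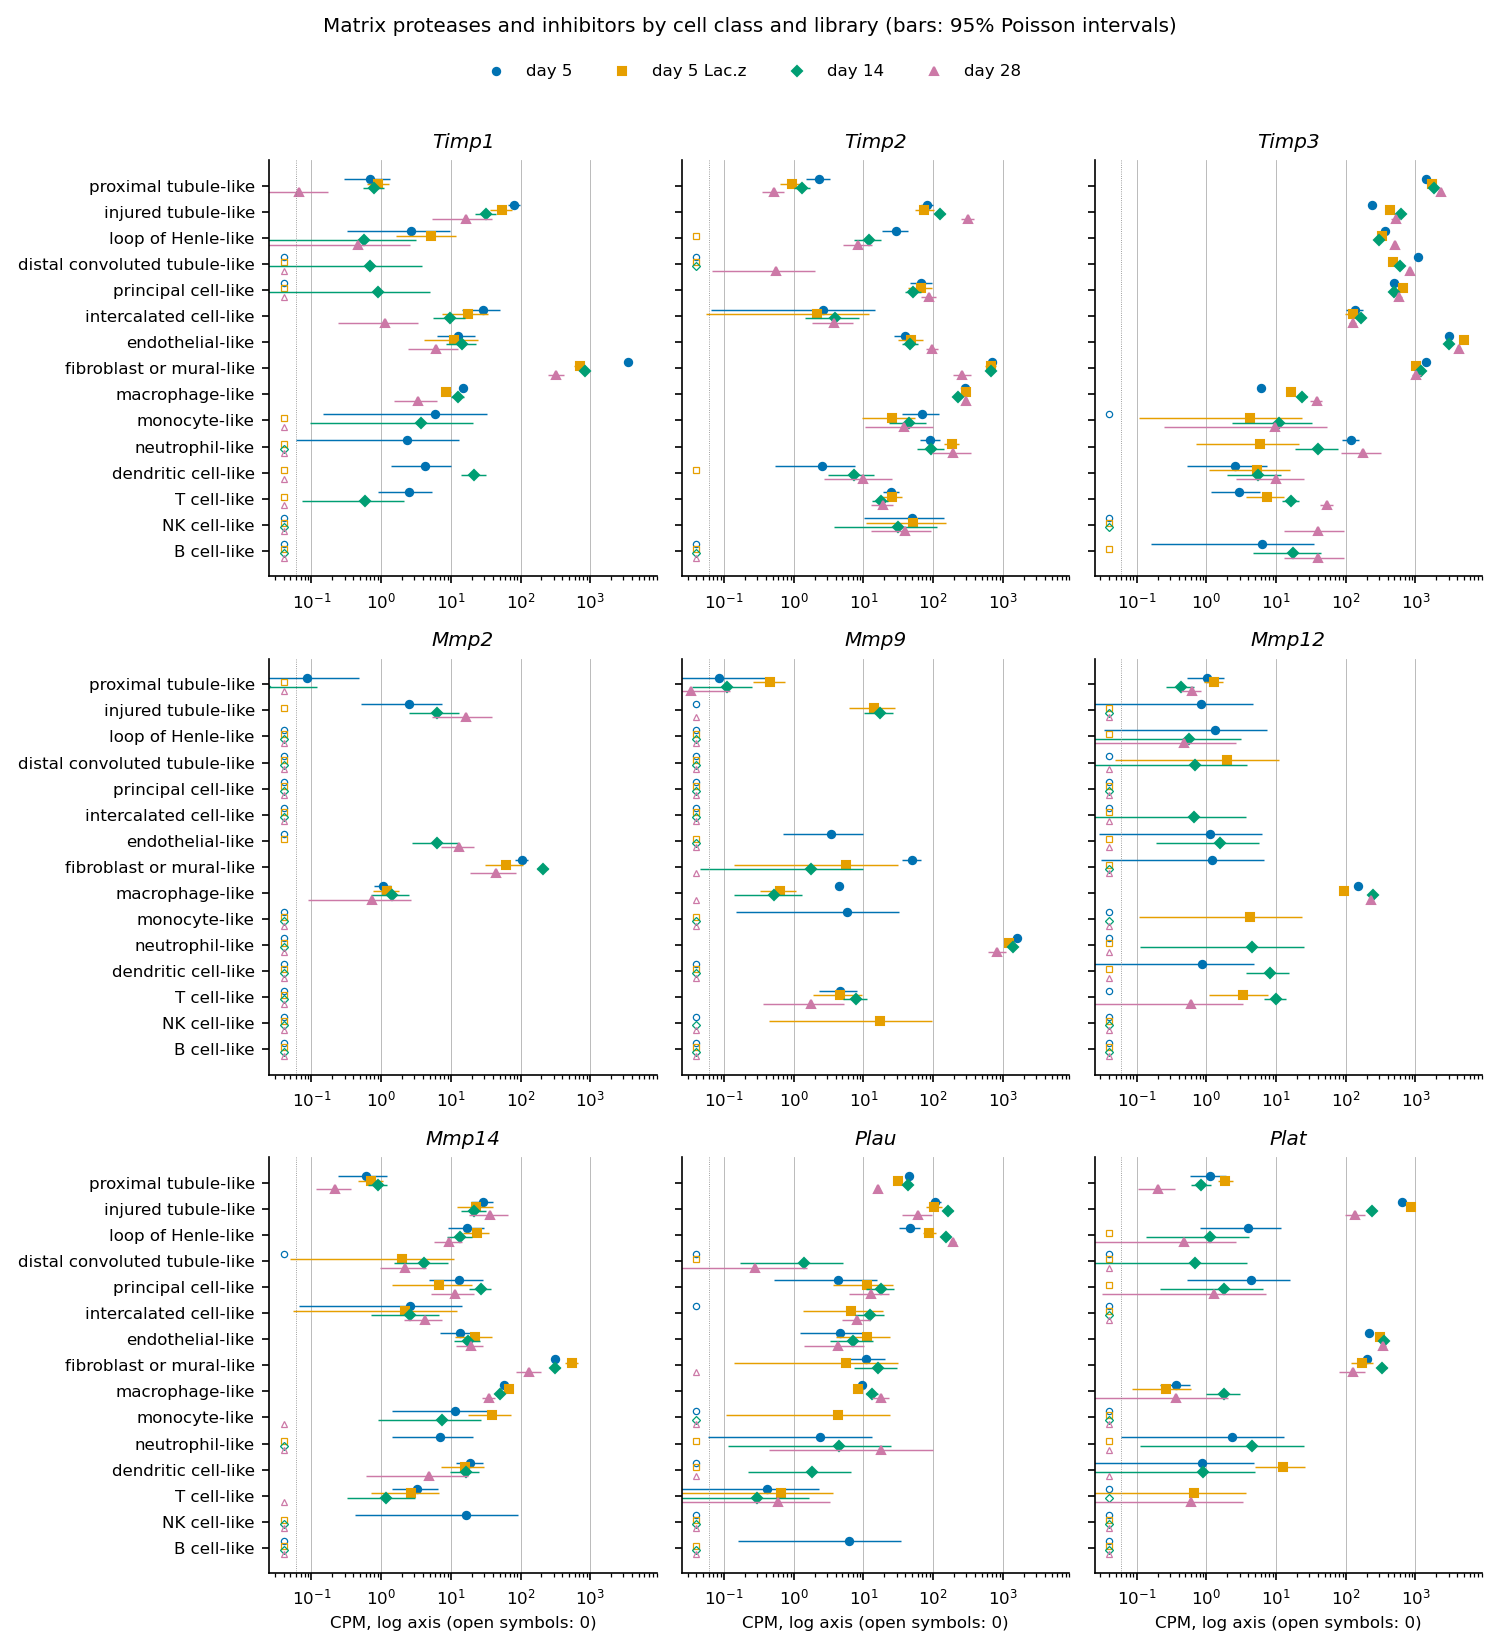
Level of each member (CPM, log axis) by cell class, 1 symbol per library, with 95% Poisson counting intervals as bars and open symbols at the left for libraries with 0 UMIs. Fibroblast or mural-like symbols lead for Timp1, Mmp2 and Mmp14, neutrophil-like symbols for Mmp9 and macrophage-like symbols for Mmp12.

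Timp1, an inhibitor that is induced in many injured tissues, was highest in fibroblast or mural-like cells, at 3459, 704, 843 and 326 CPM. The day 5 library was highest and the day 28 library lowest. The class held 46, 11, 44 and 27 cells, too few for a ratio, and single cells weighed heavily: 4 cells held 1718 of 2883 UMIs at day 5 and 55 of 59 at day 28. Without the 4 highest cells of each library the levels were 1650, 389, 443 and 28.8 CPM, in the same order of libraries. The makeup of the class moved too. Rgs5, a pericyte gene, was at 382, 464, 756 and 4051 CPM, and Col3a1, a fibrillar collagen, at 5721, 3373, 4517 and 988 CPM. Its part in the Timp1 levels was not tested.

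Outside that class Timp1 was at 81.4, 53.6, 31.6 and 16.8 CPM in injured tubule-like cells, with the highest level at day 5 without Lac.z. In macrophage-like cells it was at 15.04, 8.65, 12.5 and 3.33 CPM, from 695, 166, 97 and 9 UMIs. The stromal markers summed in macrophage-like cells were at 22.6, 25.5, 22.8 and 11.1 CPM, with 8, 7, 7 and 5 of 8 detected. Their part in the Timp1 levels was not tested. With all cells the fibroblast or mural-like range lay above that of every other class. The ranges of the classes that follow (injured tubule, intercalated cell, endothelial and macrophage-like) overlapped their neighbours. Without the 4 highest cells of each library injured tubule-like cells had 58.3, 33.1, 18.4 and 0 CPM. The fibroblast or mural-like range, at 28.8 CPM at day 28, then overlapped theirs.

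Timp2, the inhibitor that also takes part in activation of pro-MMP2 on the cell surface together with MMP14, differed least between libraries in macrophage-like cells among the 8 members measured there. Its level there was 289, 299, 231 and 292 CPM, from 13364, 5741, 1792 and 789 UMIs. The highest and lowest of these libraries, day 5 with Lac.z and day 14, were close. At least 1 Timp2 UMI was seen in 74.1%, 76.4%, 77.5% and 74.2% of macrophage-like cells, against 0.285% to 1.62% of proximal tubule-like cells, at median depths of 5505.5 to 11336 and 4888 to 7918 UMIs. Fibroblast or mural-like cells had 705, 670, 683 and 259 CPM, a range that overlapped the macrophage-like range. By median the next class was neutrophil-like cells, at 91.5, 184, 94.2 and 194 CPM, wholly below macrophage-like cells. The day 28 level came from 18 cells. Without the 4 highest cells of each library the neutrophil-like levels were 66.9, 152, 47.5 and 0 CPM. Injured tubule-like cells followed by median, at 81.4, 75.1, 124 and 316 CPM, and their day 28 level, from 23 cells, lay above the macrophage-like range. The makeup of this class differed, with Havcr1, an injury marker, at 1129 CPM at day 5 and 26.9 CPM at day 28. The part of this makeup in the Timp2 levels was not tested. Proximal tubule-like cells had 2.31, 0.937, 1.33 and 0.517 CPM of Timp2. The macrophage markers summed in them were at 78.1, 33.4, 20.7 and 9.50 CPM, also highest at day 5 and lowest at day 28, and their part in the Timp2 levels was not tested.

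Timp3 was highest in endothelial-like cells, at 3016, 5032, 3058 and 4259 CPM, with the Lac.z library highest. Proximal tubule-like cells came second at 1414, 1745, 1821 and 2333 CPM, from 16524, 61436, 83716 and 139978 UMIs, and the level was higher in each later library without Lac.z. These 2 ranges did not overlap, and the proximal range lay above that of fibroblast or mural-like cells, at 1397, 1022, 1213 and 1032 CPM. Distal convoluted tubule-like cells (1070, 470, 597 and 828 CPM) and principal-like cells (497, 661, 487 and 578 CPM) followed with overlapping ranges. Distal convoluted tubule-like cells without the 4 highest of each library had 249.8, 301, 491 and 782 CPM, which turns day 5 from highest to lowest. Loop of Henle-like cells had 368, 333, 303 and 507 CPM, where 4 cells held 220 of 277 UMIs at day 5. Without the 4 highest cells of each library they had 106, 202, 234 and 456 CPM, the lowest level then being at day 5.

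**Figure D3:**
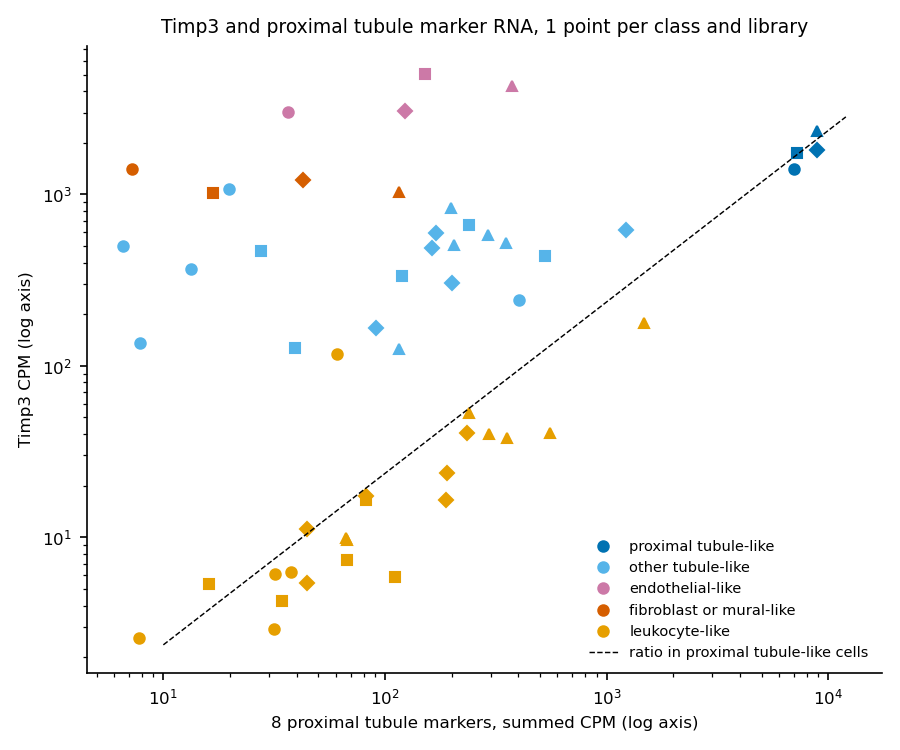
Timp3 level (CPM) against the summed level of the 8 proximal tubule markers (CPM), both on log10 scales, 1 point per class and library (circles day 5, squares day 5 Lac.z, diamonds day 14, triangles day 28). Colours group the classes, and the dashed line is the ratio in proximal tubule-like cells. Most leukocyte-like points lie near or under the line, with neutrophil-like cells at day 5 (117 CPM of Timp3) above it, while endothelial-like points sit at 3016 to 5032 CPM.

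The low Timp3 signal of macrophage-like and T cell-like cells is given here beside the proximal tubule markers in the same cells. In macrophage-like cells Timp3 was at 6.08, 16.5, 23.7 and 38.1 CPM, and the sum of the 8 proximal tubule markers there was 32.0, 82.3, 190.1 and 356 CPM. All 8 markers were detected in each library. In T cell-like cells Timp3 was at 2.90, 7.33, 16.4 and 53.4 CPM beside 31.5, 67.3, 189 and 239 CPM of the markers. Per 100 proximal tubule-marker UMIs, macrophage-like cells had 19.0, 20.03, 12.5 and 10.7 Timp3 UMIs and proximal tubule-like cells had 20.3, 24.0, 20.6 and 26.2. So the ratio of Timp3 to tubule markers in macrophage-like cells was no higher than in the tubule-like cells of the same library. The part of tubule RNA in the Timp3 levels of macrophage-like and T cell-like cells was not tested, so these levels are not assigned to a cell of origin. Neutrophil-like cells did not share the order: their Timp3 was at 117, 5.84, 40.4 and 177 CPM beside 61.0, 111, 233 and 1467 CPM of the markers, and 4 cells held 45 of the 50 UMIs at day 5.

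Mmp2 (gelatinase A) was sparse, with 412 UMIs in all. Fibroblast or mural-like cells had 104, 61.4, 210 and 44.2 CPM, from 87, 11, 118 and 8 UMIs, with day 14 highest. Only 57, 1, 78 and 0 UMIs were left without the 4 highest cells of each library. The next classes were injured tubule-like and endothelial-like cells, with medians of 4.42 and 3.18 CPM, and the stromal range with all cells lay wholly above theirs. Macrophage-like cells had 0.740 to 1.42 CPM.

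Mmp9 (gelatinase B), stored in the granules of neutrophils, was at 1615, 1241, 1399 and 831 CPM in neutrophil-like cells, from 688, 425, 312 and 47 UMIs. The day 5 level was highest and the day 28 level, from 18 cells, lowest. At least 1 UMI was seen in 85.6%, 82.5%, 83.1% and 77.8% of these cells (median depth 2332.5 to 2868 UMIs), against 0.0219% to 0.127% of proximal tubule-like cells, which were deeper. In macrophage-like cells Mmp9 was at 4.44, 0.626, 0.516 and 0 CPM, from 205, 12, 4 and 0 UMIs. The neutrophil markers summed in macrophage-like cells were at 48.8, 55.5, 44.1 and 33.7 CPM, with 8, 7, 6 and 4 of 8 detected and Ly6g at 0 in all but day 5. Their part in the Mmp9 levels was not tested. No class other than neutrophil-like cells exceeded 49.2 CPM of Mmp9 in any library.

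Mmp12 (macrophage elastase) was at 148, 94.6, 248 and 230 CPM in macrophage-like cells, from 6856, 1814, 1920 and 621 UMIs. The Lac.z library was lowest and day 14 highest. The gene was carried by few cells. At least 1 UMI was seen in 14.8%, 9.85%, 14.6% and 10.9% of macrophage-like cells (median depth 5505.5 to 11336 UMIs), against 0.121% to 0.884% of proximal tubule-like cells. The cells that held 50% of the UMIs numbered 44, 16, 10 and 7, which is 1.17%, 1.03%, 1.27% and 1.58% of the class. A single cell held up to 253 UMIs at day 5 and 218 at day 14. The level of the class as a whole thus rests on few cells. No other class exceeded 9.84 CPM, the T cell-like level at day 14.

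Mmp14, the membrane-anchored metalloproteinase that cuts pro-MMP2 and pericellular collagen, was at 313, 542, 315 and 132 CPM in fibroblast or mural-like cells, with Lac.z highest. Without the 4 highest cells of each library the levels were 208.5, 122.7, 279.6 and 47.0 CPM, so the Lac.z level, from 11 cells, was then no longer highest. Macrophage-like cells had 58.4, 68.0, 50.5 and 35.2 CPM, lowest at day 28. Injured tubule-like cells had 28.5, 23.2, 21.6 and 37.0 CPM, overlapping the macrophage-like range. The stromal range lay above both with all cells. It overlapped the macrophage-like range without the 4 highest cells of each library.

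Plau was held mainly by some of the tubule classes, while distal convoluted tubule-like cells had 0, 0, 1.39 and 0.277 CPM. At day 5 macrophage-like cells held 37.5% of the library's Plau UMIs, against 44.4% in proximal tubule-like cells. Loop of Henle-like cells had 46.5, 88.1, 154 and 194 CPM, from 35, 86, 272 and 410 UMIs, and 29.5%, 41.2%, 46.7% and 50.6% of them had at least 1 UMI, against 0.152% to 0.389% of T cell-like cells, at median depths of 4965 to 8528 and 3207 to 4818 UMIs. Every library was above the day 5 library. Proximal tubule-like cells had 44.8, 31.1, 43.0 and 16.4 CPM, from 524, 1094, 1977 and 981 UMIs, with day 28 lowest. The 2 segments thus stood in opposite order between day 5 and day 28. Injured tubule-like cells had 107, 104, 166 and 60.5 CPM, a range that overlapped that of loop of Henle-like cells and lay above the proximal range. Macrophage-like cells had 9.56, 8.39, 13.1 and 17.8 CPM, highest at day 28. The proximal tubule markers in macrophage-like cells were also highest at day 28, and the part of tubule RNA in these Plau levels was not tested.

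Some of the loop of Henle-like cells also carried Slc12a3, the sodium-chloride cotransporter of the distal convoluted tubule. Its level in the class was 332, 100.4, 93.7 and 301 CPM, while Umod, which marks the thick ascending limb, was at 10726, 13572, 11569 and 12268 CPM. In the 52, 61, 225 and 315 cells without a Slc12a3 UMI, Plau was at 51.6, 91.6, 157 and 205 CPM. In the 9, 7, 21 and 43 cells with one it was at 10.6, 33.6, 94.0 and 84.8 CPM, the first from 1 UMI. The order of day 5 below the other libraries was the same in both sets. Among proximal tubule-like cells, those with a UMI of the injury marker Havcr1 (5.08%, 6.52%, 4.58% and 0.395% of them) had 132, 67.1, 93.8 and 53.2 CPM of Plau. Those without had 38.0, 27.5, 39.4 and 16.1 CPM, so the day 28 library was lowest in both sets. Both splits were made after values had been seen.

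**Figure D4:**
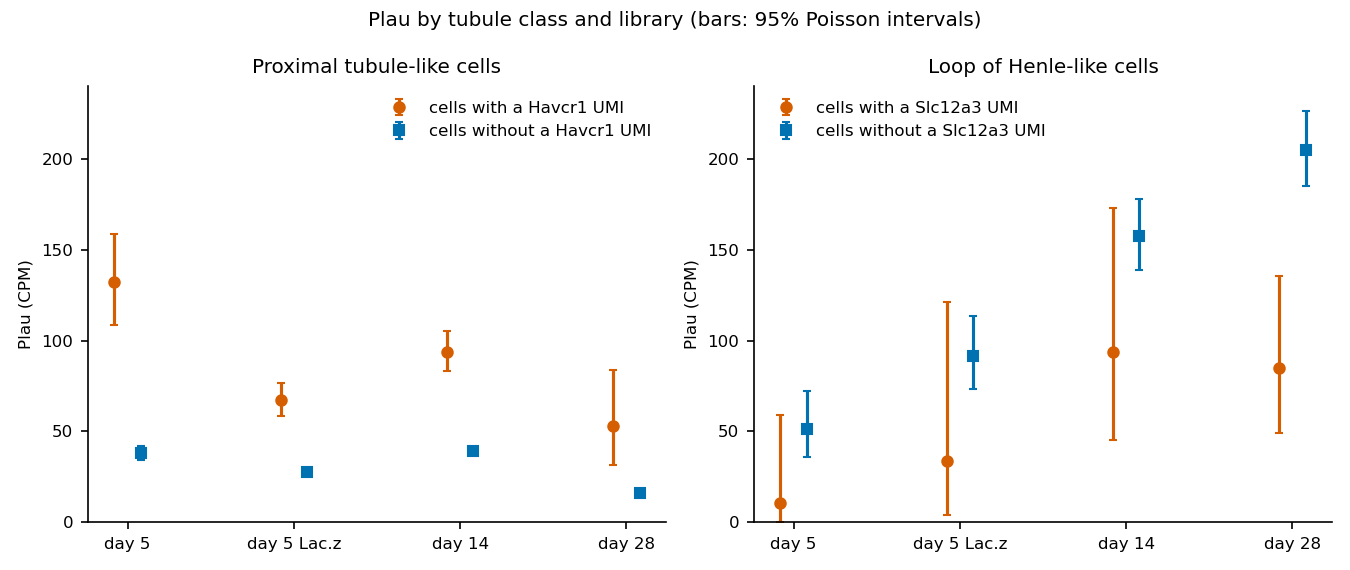
Plau level (CPM, linear axis from 0) by library in proximal tubule-like cells with and without a Havcr1 UMI (left) and loop of Henle-like cells with and without a Slc12a3 UMI (right), with 95% Poisson counting intervals as bars. In loop of Henle-like cells without Slc12a3 the level goes from 51.6 CPM at day 5 to 205 CPM at day 28, and in proximal tubule-like cells without Havcr1 from 38.0 to 16.1 CPM.

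Plat was at 644, 856, 241 and 138 CPM in injured tubule-like cells, from 767, 479, 267 and 41 UMIs, and the day 5 libraries stood above the later ones. A few cells held much of it, with 384, 383, 142 and 27 UMIs in the 4 highest cells. Without them the levels were 377, 248, 126 and 56.7 CPM, which places day 5 without Lac.z highest. The makeup of the class moved. Havcr1 in it was at 1129, 1322, 518 and 26.9 CPM, the last from 8 UMIs. Sox9 was at 109, 166, 156 and 228 CPM. The injury markers summed were at 4370, 5441, 3424 and 2506 CPM, and stromal markers at 4.20, 7.15, 239.95 and 988 CPM. Of the 23 cells at day 28, 8 were at the lowest marker count allowed. The part of this makeup in the levels of the members in this class was not tested. Endothelial-like cells had 216, 315, 348 and 338 CPM, with day 5 lowest. Fibroblast or mural-like cells had 200.4, 173, 336 and 127 CPM. These 3 ranges overlapped, and every other class with levels tabulated had a median of at most 1.53 CPM. Podocyte-like cells, at most 6 per library and none at day 5, were too few to tabulate, and Plat was among their 10 leading genes. The fibroblast or mural-like levels were 158, 94.0, 287 and 49.0 CPM without the 4 highest cells of each library.

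The first comparison, day 5 with Lac.z against day 5 without, asks how the kidney differs when the probiotic was given before injury. A gene in a class was measured where both libraries had at least 50 cells of the class and 50 UMIs of the gene between them, and called where the ratio of CPM was at least 1.5-fold either way. Of 22 member and class pairs measured in 6 classes, 5 were higher and 5 lower, where 6.22% of all genes measured in the same classes were higher and 4.13% lower. The members called were spread over macrophage, neutrophil, endothelial, proximal tubule and loop of Henle-like cells. The T cell-like class gave no call among the members, beside backgrounds of 4.57% higher and 4.04% lower.

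In macrophage-like cells with Lac.z, 3 of the 8 members measured were lower (background 3.07%) and 1 was higher (background 7.56%). Mmp9 had a ratio of 0.141 (95% interval 0.0717 to 0.252), Timp1 0.575 (0.483 to 0.683) and Mmp12 0.637 (0.605 to 0.671). Timp2, at 1.04, and Mmp14, at 1.16 (1.09 to 1.24), were within 1.5-fold, as was Plau at 0.878. The pair called higher was Timp3 at 2.71 (2.30 to 3.19), where the tubule markers were at 82.3 CPM against 32.0. Under the mean over cells its direction turned, to a log2 ratio of -0.49. Mmp12 was within 1.5-fold without doublet removal (log2 -0.56) and with Leiden clusters (-0.58), instead of -0.65. In neutrophil-like cells Mmp9 was within 1.5-fold at 0.768 (0.679 to 0.868). Timp2 was higher there at 2.01 (1.33 to 3.08), beside backgrounds of 6.87% higher and 14.4% lower, while the macrophage markers summed in that class were at 333 CPM without and 163 CPM with Lac.z. Timp3 was lower there at 0.0497 (0.00586 to 0.189), but 45 of its 50 UMIs at day 5 lay in 4 cells.

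In endothelial-like cells Timp3 was higher with Lac.z at 1.67 (1.58 to 1.76) and Plat was within 1.5-fold at 1.46 (1.18 to 1.81). The background was 6.09% higher and 5.11% lower. Tubule markers in endothelial-like cells were at 36.5 CPM without and 152 CPM with Lac.z, and their part in the Timp3 ratio was not tested. Under the mean over cells the Timp3 log2 ratio was 0.58, just under 1.5-fold, instead of 0.74. In proximal tubule-like cells Timp2 was lower at 0.406 (0.237 to 0.701), from low levels, and Plau was within 1.5-fold at 0.693 (0.624 to 0.770). Plat was called higher in them at 1.68, but its interval of 0.921 to 3.33 includes 1 and 62 of the 66 Lac.z UMIs lay in 4 cells. Its log2 ratio was 0.24 without doublet removal, instead of 0.67. The backgrounds were 6.34% higher and 1.83% lower. In loop of Henle-like cells Plau was higher at 1.90 (1.27 to 2.89), where 4.55% of genes were higher and 7.5% lower.

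**Figure D5:**
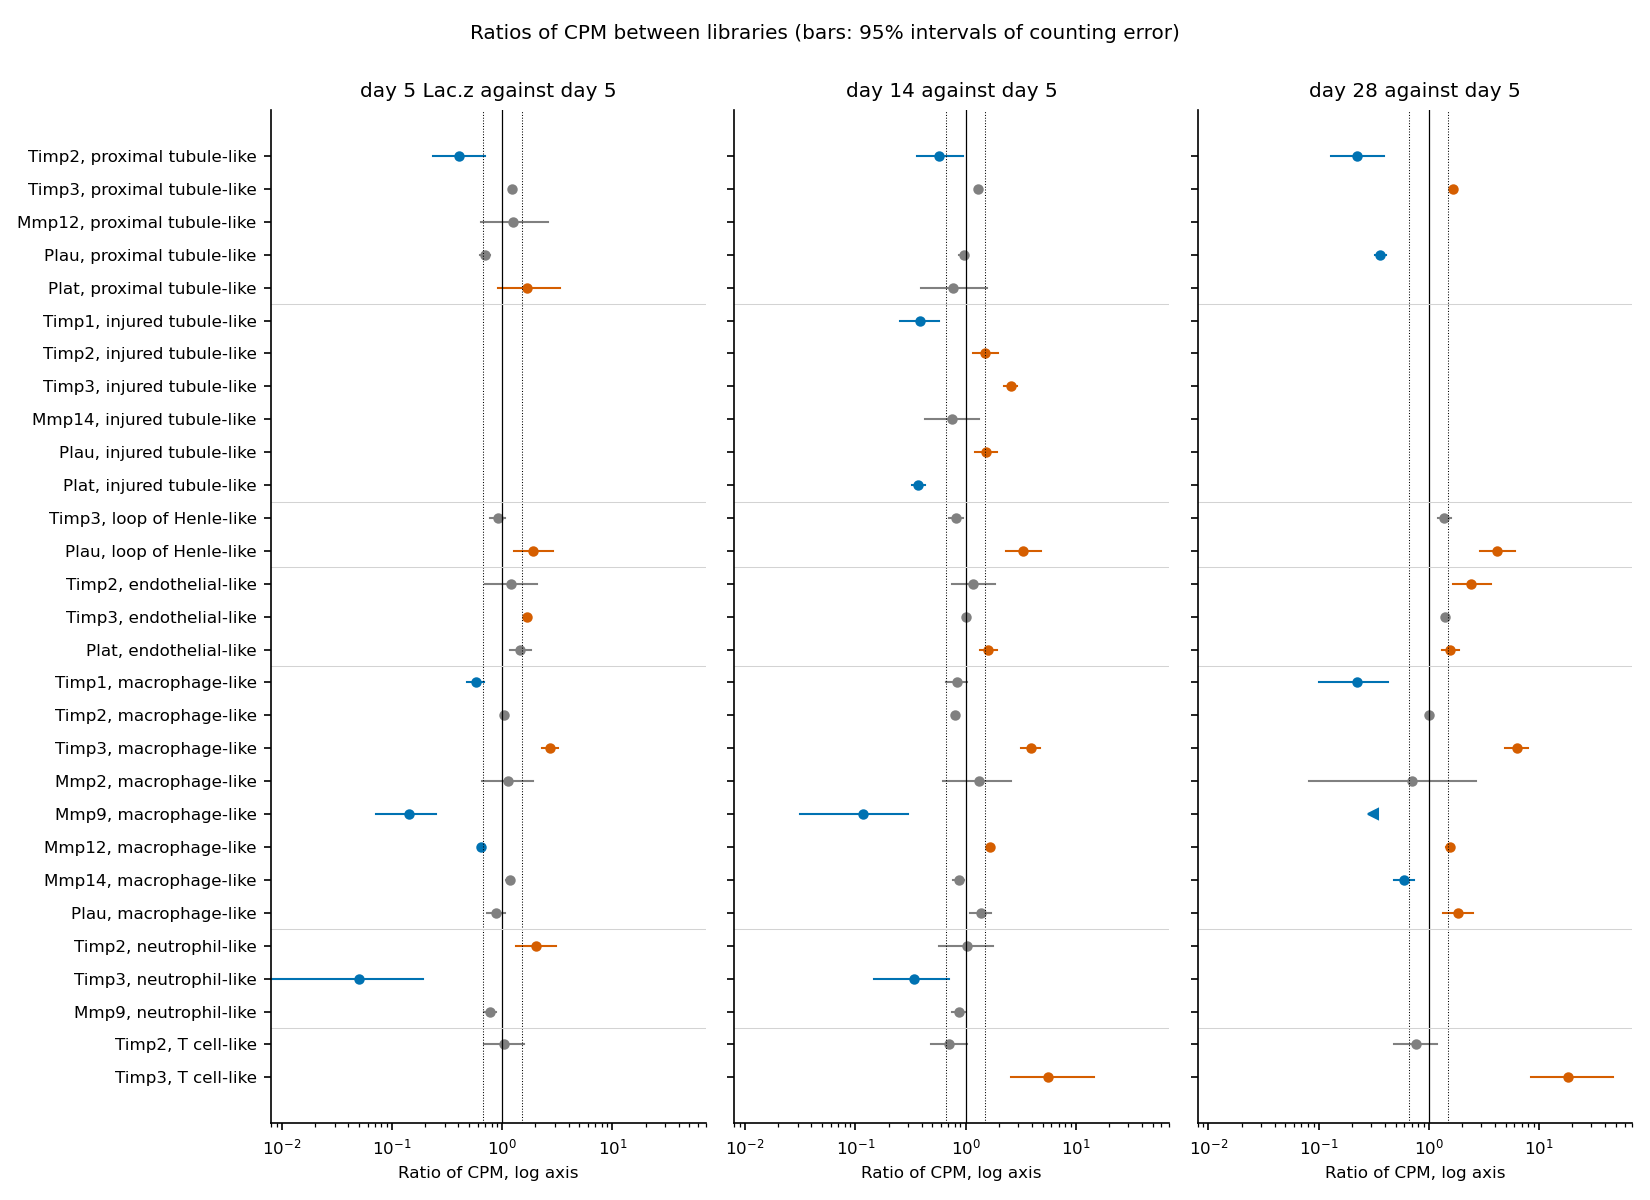
Ratio of CPM to the day 5 library (log axis) for each member and class measured, 1 panel per comparison, with exact 95% counting intervals as bars, a line at 1 and dotted lines at 1.5-fold either way. Orange symbols are higher and blue symbols lower by 1.5-fold, and the left arrow marks the upper interval bound of Mmp9 in macrophage-like cells at day 28, which had 0 UMIs. Plau in loop of Henle-like cells is orange in all 3 panels.

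The second comparison set day 14 against day 5, both without Lac.z, and follows the time after injury. It shares the day 5 library with the other comparisons, and its matrix was written by another software version, which cannot be told apart from time. Of 28 pairs measured in 7 classes, 8 were higher and 5 lower, beside 9.85% and 8.87% of all genes. In dendritic cell-like cells, where 8.29% of genes were higher and 11.3% lower, no member reached the UMIs needed. Mmp12 and Timp3 were the 2 pairs higher in macrophage-like cells, Plau was higher in both injured tubule-like and loop of Henle-like cells, and Plat was lower in injured tubule-like but higher in endothelial-like cells.

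In macrophage-like cells at day 14 Mmp12 was higher at 1.67 (1.59 to 1.76) and Mmp9 lower at 0.116 (0.0314 to 0.302), beside backgrounds of 10.5% higher and 12.3% lower. Without the 4 highest cells of each library the Mmp12 log2 ratio went from 0.74 to 0.34, which is within 1.5-fold. It was also within 1.5-fold under the stricter gate (0.49), Leiden clusters (0.19), thinning (0.50) and the mean over cells (0.55). Timp1 (0.831), Timp2 (0.799), Mmp14 (0.865) and Plau (1.37) were within 1.5-fold. Timp1, at a log2 ratio of -0.25, passed it as lower without the 4 highest cells (-1.32), with Leiden clusters (-1.67), under the mean over cells (-1.03), after thinning (-1.11) and under the stricter gate (-0.65). Timp3 was higher in macrophage-like (3.90, 3.22 to 4.71) and T cell-like cells (5.65, 2.57 to 14.7), beside the higher tubule markers given above. Its direction turned in macrophage-like cells under the mean over cells (log2 -0.013) and in T cell-like cells without doublet removal (-0.56). T cell-like backgrounds were 6.57% higher and 5.8% lower. In neutrophil-like cells Mmp9 was within 1.5-fold at 0.866 (0.756 to 0.992), and Timp3 was lower at 0.344, again from a day 5 level held by 4 cells, beside a background of 11.2% lower. Under the mean over cells that log2 ratio was -0.35, within 1.5-fold, instead of -1.42.

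Injured tubule-like cells had the most calls at day 14. Timp3 was higher at 2.57 (2.24 to 2.96), Plau at 1.54 (1.23 to 1.95) and Timp2 at 1.52 (1.16 to 1.99), where 15.6% of genes were higher. Plat was lower at 0.374 (0.324 to 0.431) and Timp1 at 0.388 (0.256 to 0.576), where 9.64% were lower. The class was small, with 50 cells at day 5 and 76 at day 14, and its makeup differed. Proximal tubule markers in it went from 401 to 1229 CPM, injury markers from 4370 to 3424 CPM and stromal markers from 4.20 to 239.95 CPM. The part of this makeup in the 5 ratios was not tested. Leaving out 4 cells takes the class under 50 cells at day 5, so the 5 ratios have no value without the highest cells. Under the mean over cells Timp2 was at 0.48 on the log2 scale, within 1.5-fold. Mmp14 was within it at 0.759 (0.430 to 1.32).

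In loop of Henle-like cells Plau was higher at day 14 at 3.30 (2.32 to 4.84), beside a background of 8.75% higher. In endothelial-like cells Plat was higher at 1.62 (1.36 to 1.93), beside 9.86%, and Timp3 was level at 1.01. Stromal markers in endothelial-like cells were at 53.6 CPM at day 5 and 158 CPM at day 14, and their part in the Plat ratio was not tested. Plat was within 1.5-fold after thinning (log2 0.45 instead of 0.69) and without doublet removal (0.58). In proximal tubule-like cells Timp2 was lower at 0.574 (0.360 to 0.940), from 61 and 27 UMIs at day 14 and day 5, beside 5.7%. Plau was level there at 0.959 (0.871 to 1.06) and Timp3 was within 1.5-fold at 1.29.

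The third comparison set day 28 against day 5, both without Lac.z. It shares the day 5 library and the same difference in software version. Of 18 pairs measured in 5 classes, 8 were higher and 5 lower, beside 11.7% and 9.11% of all genes. Plau was higher in loop of Henle-like and macrophage-like cells and lower in proximal tubule-like cells. Timp3 was higher in proximal tubule-like cells, and Timp1, Mmp9 and Mmp14 were lower in macrophage-like cells.

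Timp1 in macrophage-like cells at day 28 was lower at 0.222 (0.101 to 0.423) and Mmp14 at 0.602 (0.485 to 0.739). Mmp9 had 0 UMIs against 205 at day 5. With a floor of 3 counts, or 1.11 CPM, it was at least 3.99-fold lower. The background was 13.2% lower. Mmp12 was higher at 1.55 (1.42 to 1.68) and Plau at 1.86 (1.35 to 2.51), where 15.8% of genes were higher. Without the 4 highest cells of each library the log2 ratio went from 0.63 to 0.15 for Mmp12 and from 0.92 to 0.53 for Plau, both then within 1.5-fold. Mmp12 was also within 1.5-fold under the stricter gate (0.55), Leiden clusters (0.02), thinning (0.52) and the mean over cells (0.43), the last of which gave 0.55 for Plau. Mmp14 was at -0.44 with Leiden clusters, within 1.5-fold, instead of -0.72. All 9 Timp1 UMIs at day 28 lay in 4 cells. Timp2 was level at 1.01. The Timp3 ratios of 6.27 (4.95 to 7.89) in macrophage-like and 18.4 (8.56 to 47.0) in T cell-like cells stood beside the higher tubule-marker sums given above. The T cell-like log2 ratio was 0.72 without doublet removal, instead of 4.02. The T cell-like backgrounds were 9.04% higher and 7.58% lower.

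In proximal tubule-like cells at day 28 Timp3 was higher at 1.65 (1.62 to 1.68), beside 7.47% of genes. Plau was lower at 0.365 (0.328 to 0.406) and Timp2 at 0.224 (0.129 to 0.389), beside 7.03%. The Timp2 ratio rests on 31 UMIs at day 28 and 27 at day 5. Median depth of these cells was 7099.5 UMIs at day 5 and 4888 at day 28, and with each cell thinned to 2000 UMIs the Timp3 log2 ratio was 0.41 instead of 0.72, within 1.5-fold, as it was under the mean over cells (0.33). Havcr1 in the class was at 24.7 CPM at day 5 and 1.97 CPM at day 28. In loop of Henle-like cells Plau was higher at 4.16 (2.95 to 6.06), beside 16.3% higher and 7.83% lower, and Timp3 was within 1.5-fold at 1.38. Timp3 in loop of Henle-like cells passed 1.5-fold as higher in all 3 comparisons without the 4 highest cells of each library (log2 0.92, 1.12 and 2.09), where with all cells it was at -0.14, -0.28 and 0.46. In endothelial-like cells Plat (1.57, 1.31 to 1.88) and Timp2 (2.43, 1.65 to 3.66) were higher, beside 10.2%. Stromal markers in endothelial-like cells were at 53.6 and 204 CPM, and their part in these ratios was not tested. Plat was again within 1.5-fold after thinning (log2 0.40 instead of 0.65) and without doublet removal (0.56), and Timp3 was within it at 1.41.

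The remaining pairs measured were within 1.5-fold. Timp2 in T cell-like cells had ratios of 1.04 (0.679 to 1.59), 0.707 (0.485 to 1.03) and 0.762 (0.480 to 1.19) in the 3 comparisons. Mmp2 in macrophage-like cells had 1.13 (0.658 to 1.89), 1.34 (0.627 to 2.61) and 0.698 (0.0822 to 2.66). With Lac.z and at day 14, Timp2 in endothelial-like cells was at 1.21 and 1.18 and Timp3 in loop of Henle-like cells at 0.905 and 0.824. Timp3 in proximal tubule-like cells was at 1.23 with Lac.z, Mmp12 there at 1.24 with Lac.z, Plat there at 0.763 at day 14, and Timp2 in neutrophil-like cells at 1.03 at day 14.

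The rest of the pathway was followed through lists of 15 other metalloproteinases, 14 ADAM and ADAMTS enzymes, 10 other genes of the plasminogen system and 10 other inhibitors or partners. They were chosen with earlier results of these data known. Few of the other metalloproteinases were measured. In macrophage-like cells 4 were, and none was called with Lac.z. At day 14, 1 was higher and 2 lower, and at day 28, 1 was higher and 3 lower, with a median log2 ratio of -2.20 beside -0.01 over all genes. The one higher was Mmp13 (collagenase 3), with ratios of 3.35 and 5.69. Mmp8, the collagenase of neutrophils, was lower at 0.241 (0.114 to 0.451) and 0.0693 (0.00175 to 0.389), from 10 UMIs and 1 UMI. In neutrophil-like cells Mmp8 was at 263 CPM at day 5 and 58.3 CPM at day 14. The part of neutrophil RNA in the Mmp8 levels of macrophage-like cells was not tested. Mmp27 was lower at 0.174 at day 14, from 3 UMIs, and had 0 UMIs at day 28, with an upper bound of 0.624. Mmp19 was lower at 0.254 (0.102 to 0.528) at day 28, from 7 UMIs. The day 28 median of this list thus rests on few UMIs.

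Among ADAM enzymes in macrophage-like cells, 7 were measured. Adam19 was higher at 3.07 and 3.60 at day 14 and day 28, and Adam8 lower at 0.328 and 0.437. In all, 1 was higher and 1 lower at day 14, and 1 higher and 4 lower at day 28, where Adam9 (0.543) and Adamts10 (0.588, 0.301 to 1.04) followed Adam8. Backgrounds are those given above for macrophage-like cells. In the plasminogen list, 3 of 7 genes measured in macrophage-like cells were lower at day 14 and 4 of 6 at day 28. They were led by Lrp1, the scavenger receptor of protease-inhibitor complexes, at 0.501 and 0.352, S100a10 at 0.447 and 0.458 and its partner Anxa2 at 0.477 and 0.593. Of 7 other inhibitors and partners measured, none was called with Lac.z, 1 was higher and 1 lower at day 14, and 1 was higher and 3 lower at day 28. The one higher was Spint2, a membrane-bound inhibitor of serine proteases, at 1.96 and 3.46. Slpi, an inhibitor of neutrophil elastase, was lower at 0.385 at day 14 and had 0 UMIs at day 28. At day 5 Slpi was at 7.03 CPM in macrophage-like and 1930 CPM in neutrophil-like cells. The part of neutrophil RNA in its macrophage-like levels was not tested. The TIMP1 partner Cd63 (0.535) and Spint1, from 1026 and 30 UMIs at day 5 and day 28, were lower at day 28 too.

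In proximal tubule-like cells no other metalloproteinase was measured, and of 7 genes of the ADAM list measured, 2, 4 and 2 were higher in the Lac.z, day 14 and day 28 comparisons, and none was lower, beside 6.34%, 9.14% and 7.47% of all genes higher and 1.83%, 5.7% and 7.03% lower. Adamts1 had ratios of 1.91, 2.09 and 1.68 and Adamts15 of 1.66, 2.17 and 2.40 in the 3 comparisons. At day 14 Adam15 (1.57) and Adam9 (1.56) were higher as well. The median log2 ratio of the list at day 14 was 0.64 beside 0.04 over all genes. Serpinf2, which encodes the plasmin inhibitor alpha-2-antiplasmin, was higher at 2.13 at day 14 and 2.35 at day 28, and Serpine2 was higher at 3.38 at day 14, from 10 UMIs at day 5. Slpi was higher at 2.82 (1.35 to 6.80) with Lac.z, from 8 UMIs at day 5 without it, and Cd44 lower at 0.558 (0.304 to 1.08) at day 28. Anxa2 (0.179) and Plaur, the urokinase receptor (0.236), were lower at day 28, as Plau was. In loop of Henle-like cells Adamts1 was lower at 0.318 at day 14 and 0.146 at day 28, and Anxa2 was lower at 0.429 and 0.352. Of all genes measured there, 12.2% were lower at day 14 and 7.83% at day 28. Itgb1 was lower there at 0.554 and 0.589, Adam10 at 0.539 at day 14 and S100a10 at 0.590 at day 28. Plgrkt was called higher at 1.61 with Lac.z (0.969 to 2.73) and 1.56 at day 14 (0.983 to 2.56), both with intervals that include 1. In injured tubule-like cells at day 14 Adamts9 (0.300), Adamts5 (0.446), Anxa2 (0.524) and Plaur (0.550) were lower.

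The genes whose pattern was most like each member were sought over 35 profiles of class and library with at least 50 cells, among 12031 genes, by Pearson's r of log2(CPM + 1). The profiles share libraries and cell classes, so r is a description. Timp3 was most like Plscr2 (r = 0.96), Wwtr1 (0.93) and Syn3 (0.93), of which Syn3 overlaps it on the other strand. Mmp9 was most like Cxcr2, Hdc and Gm5483, each at 0.93, and Cxcr2 is one of the markers that define the neutrophil class. Mmp12 was most like Abca9 (0.93), Spic (0.93) and Ms4a7 (0.92), the last a marker of the macrophage class. Plat was most like the basement membrane gene Nid1 (0.93), Cd34 (0.91) and Mxra8 (0.91).

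For the other members the nearest genes were less alike. Timp1 was nearest to Anxa3 (0.83), Nrp2 (0.78) and Rtn4 (0.78), Timp2 to Hacd4 (0.88), Zfp703 (0.85) and Selenon (0.84), and Mmp14 to Anxa5 (0.87), Cyfip1 (0.86) and Sh3bgrl (0.84). Plau was nearest to Slc16a12 (0.81), Il34 (0.80) and Eprn (0.78). Mmp2 had 120 UMIs in these profiles, under the minimum of 500, and was not compared.

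By GENCODE annotation of the build used in the files, the members lie on 7 chromosomes. Timp1 is at chrX:20870166-20874735 (plus strand), Timp2 at chr11:118301069-118355740 (minus), Timp3 at chr10:86300372-86349506 (plus), Mmp2 at chr8:92827291-92853420 (plus) and Mmp9 at chr2:164940780-164955850 (plus). Mmp12 is at chr9:7344381-7369499 (plus), Mmp14 at chr14:54431612-54445364 (plus), Plau at chr14:20836660-20843385 (plus) and Plat at chr8:22757727-22782844 (plus). Timp1 overlaps Syn1, Timp3 overlaps Syn3 and Mmp12 overlaps Mmp1b on the opposite strand, and Timp2 overlaps Cep295nl on the same strand. The sources used here do not state whether counting used strand, so reads in the overlaps are uncertain. Syn3 had 724, 1751, 1609 and 2887 UMIs, Syn1 had 65, 14, 10 and 1, Cep295nl had 43, 22, 12 and 4, and Mmp1b had 0 in every library.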

How the data were processed

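The deposited files are matrices of UMI counts per gene and cell barcode, 1 matrix for each of the 4 libraries, in genome build mm10 per the submitters' processing notes. Per the file headers, the matrices were written with software version 3.0.2 (the pair of day 5 libraries) or 3.1.0 (the later ones). Aligner and annotation were not given in the sources used here. The lowest barcode held 502 to 509 UMIs, so the barcodes had been filtered before deposit. Per the labels' protocols, tissue was digested with enzymes, passed through a 40 µm strainer and freed of red cells.

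Filters of 200 or more genes and no more than 50% of UMIs from mitochondrial genes left 7086, 7043, 9572 and 14138 barcodes. Scrublet scores, computed with scanpy 1.11.5, ranked the cells, and the top 0.8% per 1000 deposited barcodes were left out as doublets (478, 460, 858 and 1762), because Scrublet's own threshold marked only 161, 1, 63 and 2. Cells were gated by fixed markers with thresholds set after seeing the data. Cells at the lowest marker count allowed numbered 1110 of 19925 proximal tubule-like, 144 of 6554 macrophage-like, 87 of 733 loop of Henle-like, 34 of 176 injured tubule-like, 23 of 128 fibroblast or mural-like (14 of 27 at day 28) and 107 of 223 dendritic cell-like cells. No class had another class's markers among its 10 leading genes. These were taken from the same gated cells with the 4 libraries summed, so they do not check the gate or show mixing within 1 library.

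UMIs were summed per class and library and divided by the class sum. Ratios carry an exact conditional binomial 95% interval, and log2 ratios add 1 UMI to each sum. PCR duplicates were collapsed by UMI, but intervals cover counting error only. The call rule and intervals were checked on simulated Poisson counts. These hold no spread between cells, animals or libraries, so the check does not cover calls that rest on few cells. All members were named in every class where they were measured, and from the other lists up to 3 genes with the highest and 3 with the lowest ratio past 1.5-fold in macrophage-like and tubule classes. The members, lists and motifs were chosen with earlier results of these data known. Analyses used Python 3.11.15, numpy 2.4.6, scipy 1.17.1, pandas 2.3.3 and leidenalg 0.10.2. Alternatives were a stricter gate, Leiden clusters, a mitochondrial limit of 25%, no doublet removal, a minimum of 200 UMIs, thinning to 2000 UMIs per cell, scaling without mitochondrial genes, the mean over cells and, chosen after seeing the data, leaving out the 4 highest cells. 1 gene of the plasminogen list is not reported here.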

Additional observations from a re-analysis of the deposited data

Results flagged for a closer look

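Several members had ratios past 1.5-fold in opposite directions in different classes under the same comparison. The difference between classes was not tested, and values are log2 ratios to the day 5 library. With Lac.z, Timp2 was at -1.31 in proximal tubule-like and 0.99 in neutrophil-like cells, and Timp3 at 0.74 in endothelial-like, 1.44 in macrophage-like and -3.77 in neutrophil-like cells. At day 14, Timp2 was at -0.83 in proximal tubule-like and 0.60 in injured tubule-like cells. Timp3 was then at 1.36 in injured tubule-like, 1.97 in macrophage-like, 2.33 in T cell-like and -1.42 in neutrophil-like cells. Plat was at -1.41 in injured tubule-like and 0.69 in endothelial-like cells at day 14.

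At day 28, Timp2 was at -2.17 in proximal tubule-like and 1.25 in endothelial-like cells. Plau was at -1.46 in proximal tubule-like, 2.02 in loop of Henle-like and 0.92 in macrophage-like cells, the last within 1.5-fold without the 4 highest cells of each library (0.53). The Plau values rest on 524 and 981 UMIs in proximal tubule-like cells and on 35 and 410 in loop of Henle-like cells, at day 5 and day 28. The Timp3 values in macrophage, T cell and neutrophil-like cells rest on few UMIs or move with tubule markers, as given beside them in the report.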

How the results depend on the processing

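No paired analysis was possible because each group has 1 library. Depth limits most members outside their main class: only 18 to 28 member and class pairs reached 50 UMIs. The number of pairs higher and lower, 5 and 5 with Lac.z, was 3 and 3 with Leiden clusters and 2 and 3 with a minimum of 200 UMIs. The number lower was 3 with a mitochondrial limit of 25%, 2 after thinning and 3 without the 4 highest cells. At day 14, 8 higher and 5 lower became 4 and 3 with the 25% limit, 3 and 1 after thinning and 4 and 2 without the 4 highest cells. There, 5 were higher under the stricter gate, 4 higher with Leiden clusters, 9 lower without doublet removal and 2 lower with at least 200 UMIs. At day 28, 8 and 5 became 4 and 3 after thinning. Of 36 calls, scaling without mitochondrial genes kept 36 and the mean over cells 26, with 9 no longer called. Thinning kept 13, with 5 no longer called and 18 not measured. The 25% limit kept 25 and the minimum of 200 UMIs 24, with 0 no longer called and 11 and 12 not measured. Leiden clusters kept 21, with 4 no longer called and 11 not measured. Leaving out the 4 highest cells kept 21, with 3 no longer called and 12 not measured. The smaller counts above thus come in large part from pairs under the minimum of cells or UMIs. Directions turned for Timp3 in macrophage-like cells under the mean over cells (log2 -0.49 with Lac.z and -0.013 at day 14) and in T cell-like cells at day 14 without doublet removal (-0.56). Mmp12 in macrophage-like cells, at 0.74 and 0.63 at day 14 and day 28, was 0.19 and 0.02 with Leiden clusters. Timp1 in macrophage-like cells at day 14, at -0.25, was -1.67 with Leiden clusters. The causes of these changes in ratio were not tested.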

Other observations

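Macrophage-like cells with a Mmp12 UMI (558, 153, 115 and 48 cells in the order day 5, day 5 Lac.z, day 14, day 28) were compared with those without, within each library. Their median depth was 15636, 17962, 13608 and 10207 UMIs against 10923, 10572.5, 8976 and 5258, and CPM scales for the sum but not for this choice by detection. The genes below were picked after seeing values, so no test is given. Dcstamp, which is needed for fusion of macrophages and osteoclasts, had 169, 86, 108 and 60 UMIs in the cells with Mmp12 and 12, 1, 4 and 3 in the far more numerous cells without. The ratios were 58.2 (95% interval 32.4 to 115), 479 (83.7 to 19145), 109 (41.2 to 406) and 93.8 (30.6 to 468). Ear2, an eosinophil-associated ribonuclease, was 20.1, 86.7, 35.7 and 20.2-fold higher, and the integrin Itgax (CD11c) 6.42, 5.95, 8.37 and 6.74-fold. Of the members, Timp1 was 4.41, 7.10, 51.8 and 9.38-fold higher, the last from 6 and 3 UMIs (2.00 to 58.0), while Mmp14 ratios were 1.40, 1.59, 1.27 and 1.10 and Timp2 ratios 0.861, 1.27, 0.963 and 0.817. The Timp1 ratio at day 14 rests on few cells. Only 22 macrophage-like cells had a Timp1 UMI then, and 4 of them held 56 of the 97 UMIs. Genes lower in the cells with Mmp12 included the chemokine Ccl8, at ratios of 0.189, 0.326, 0.210 and 0.289, and the adhesion molecule Vcam1, at 0.337, 0.279, 0.122 and 0.113. Of 5117 genes, 114 were higher and 143 lower by 1.5-fold in all 4 libraries. In the whole macrophage-like class Dcstamp was at 3.92, 4.54, 14.4 and 23.3 CPM and Itgax at 39.2, 52.8, 64.7 and 80.3 CPM, while the mannose receptor Mrc1 was at 650, 409, 515 and 388 CPM.

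Proximal tubule-like cells with a Plau UMI (309, 749, 1100 and 714 cells) were deeper than those without (median 9957, 10917, 11867 and 10273.5 against 6380, 7409, 5366 and 4620.5 UMIs). In them Havcr1 was 13.9, 3.95, 4.53 and 9.52-fold higher, the iron-oxidizing Cp 14.8, 4.28, 3.62 and 8.16-fold, and the small heat shock gene Hspb1 7.99, 3.15, 5.71 and 5.95-fold. Slc34a3, a phosphate cotransporter of the mature proximal tubule, had ratios of 0.491, 0.383, 0.456 and 0.479. Timp3 ratios were 1.21, 1.13, 1.30 and 1.25. Of 9258 genes, 107 were higher and 45 lower in all 4 libraries. Loop of Henle-like cells with a Plau UMI (18, 28, 115 and 181 cells) were also deeper than those without. Their median was 13878, 13721.5, 8199 and 7503 UMIs against 6006, 6591.5, 3640 and 3006. The median mitochondrial share was 16.1%, 25.5%, 18.5% and 9.50% against 24.7%, 24.0%, 29.5% and 18.5%. The part of both in the ratios that follow was not tested. In the cells with Plau, the immediate-early genes Egr1 (2.63, 2.56, 13.1 and 2.40), Fos (3.22, 3.12, 6.03 and 2.00) and Atf3 (4.92, 7.78, 4.44 and 1.95) had ratios above 1.5. Slc12a3 had 1, 1, 13 and 6 UMIs in the cells with Plau and 249, 97, 153 and 631 in those without. Its ratios were 0.00344 (8.67e-05 to 0.0193), 0.00511 (0.000128 to 0.0291), 0.0465 (0.0242 to 0.0820) and 0.00488 (0.00179 to 0.0107). Of 1922 genes, 31 were higher and 2 lower in all 4 libraries.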
